A study of Mus musculus with 12 samples.

Results

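The 8 genes described here encode surface proteins through which macrophages stimulate or restrain T cells. They are the costimulatory receptor CD40 (Cd40), the costimulatory ligands CD80, CD86 and ICOS ligand (Cd80, Cd86, Icosl), the PD-1 ligands PD-L1 (Cd274) and PD-L2 (Pdcd1lg2), the inhibitory receptor CD200R1 (Cd200r1) and the adhesion molecule ICAM-1 (Icam1). They were chosen by name, as the count rows whose symbol is one of these 8, and all 8 were found among 40847 gene rows. All 8 also passed the filter on low counts that left 14749 genes, although Cd40 passed only through the libraries with Pam3.

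A naive T cell needs a signal from its antigen receptor and a costimulatory signal, which CD80 and CD86 give by binding CD28 on the T cell. CTLA-4 competes for the same ligands, PD-L1 and PD-L2 engage the inhibitory receptor PD-1, and ICOS ligand engages ICOS on activated T cells. CD40 receives CD40 ligand from T cells, ICAM-1 holds the contact through leukocyte integrins, and CD200R1 receives a restraining signal from CD200. Alveolar macrophages are known as poor stimulators of T cells in the resting lung, and TGFβ maintains their identity there.

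The cells were fetal liver alveolar-like macrophages (FLAMs), mouse macrophages grown from fetal liver as a model of the alveolar macrophage. Every culture received GM-CSF at 30 ng/ml, and the study asked how TGFβ changes the answer to TLR2 activation. The 4 groups were untreated cells, cells with recombinant human TGFβ1 at 20 ng/ml, cells stimulated through TLR2 for 18 h with the lipopeptide Pam3CSK4 (Pam3, 25 ng/ml), and cells given both. Each group had 3 libraries of polyadenylated RNA. The mouse strain, the sex and age of the donor embryos, the number of isolates and the duration of TGFβ culture are not given in the sources used here. Replicates may therefore be technical, and p-values measure only the spread between these libraries.

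The libraries held 34036650 to 44374115 counts. All 10 macrophage markers and all 10 alveolar macrophage markers examined passed the filter, and the summed alveolar list ran from 8730 to 10200 CPM over the 12 libraries. Its members moved both ways with TGFβ at rest: Marco went from a mean of 2150 to 123 CPM, Fabp4 from 31.1 to 0.132 and Mrc1 from 1860 to 970, while Siglecf went from 32.1 to 300 and Chil3 from 2950 to 5040. CPM here are counts scaled to the library size after TMM. The summed macrophage list was lower with TGFβ (19900 to 20800 CPM) than in untreated cells (34600 to 39000 CPM), mostly from Lyz2, which went from a mean of 29800 to 15200 CPM. The other members of this list also fell with TGFβ at rest, except for Mertk, Spi1 and Fcgr1. Adgre1 went from 303 to 145 CPM, Cd68 from 858 to 549 and Ptprc from 737 to 510. Csf1r went from 983 to 820 CPM, Csf2rb from 2290 to 1880 and Csf2ra from 495 to 425. Mertk (223 and 222 CPM) and Spi1 (562 and 528 CPM) differed little, and Fcgr1 went from 81.1 to 91.3 CPM. Of the T cell markers, Cd3e, Cd3g and Cd8a had no count in any library, while Lck reached 36 counts and Trac 15. Of the dendritic cell markers Flt3 had at most 1 count and Kit at most 3, while Clec9a stood at means of 15.5 to 20.5 CPM and Zbtb46 at 1.42 to 4.64 CPM.

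Promoter sequences are shown for the 3 genes with a called interaction that matched the RefSeq table (GRCm38.p6, not the GRCm39 of the counts) and for Cd80, the gene TGFβ lowered most. Each runs 5′ to 3′ from 250 bases before to 50 after the start of the gene, and 5 of the 8 genes matched, Pdcd1lg2 included. Cd40, Cd86 and Cd200r1 had no entry. Capitals mark matches on either strand to 6 motifs: kappaB (GGG, any 2 bases, TT, any base, CC), GAS (TTCNNNGAA), ISRE (GAAA, any 2 bases, GAAA), AP-1 (TGANTCA), SMAD (CAGACA) and PU.1 (GAGGAA).
Icam1 promoter, chr9:21015690-21015989, plus strand: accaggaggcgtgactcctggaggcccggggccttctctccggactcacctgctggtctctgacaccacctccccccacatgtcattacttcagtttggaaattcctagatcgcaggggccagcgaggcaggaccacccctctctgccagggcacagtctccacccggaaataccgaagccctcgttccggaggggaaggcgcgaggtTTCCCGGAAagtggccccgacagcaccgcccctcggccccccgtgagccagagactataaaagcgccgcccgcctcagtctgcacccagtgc
Cd274 promoter, chr19:29367188-29367487, plus strand: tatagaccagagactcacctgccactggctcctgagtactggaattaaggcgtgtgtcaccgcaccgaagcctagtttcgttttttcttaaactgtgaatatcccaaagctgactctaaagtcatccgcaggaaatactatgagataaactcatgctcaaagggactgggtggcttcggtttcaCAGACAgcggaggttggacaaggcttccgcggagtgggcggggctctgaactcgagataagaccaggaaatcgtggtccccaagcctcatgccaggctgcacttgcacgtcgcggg
Icosl promoter, chr10:78069118-78069417, plus strand: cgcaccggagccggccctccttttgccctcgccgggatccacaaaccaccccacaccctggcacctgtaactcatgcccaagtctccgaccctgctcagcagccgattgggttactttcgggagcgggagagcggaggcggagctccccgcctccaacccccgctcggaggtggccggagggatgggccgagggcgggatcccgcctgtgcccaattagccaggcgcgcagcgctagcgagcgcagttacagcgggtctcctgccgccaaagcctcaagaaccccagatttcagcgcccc
Cd80 promoter, chr16:38458683-38458982, plus strand: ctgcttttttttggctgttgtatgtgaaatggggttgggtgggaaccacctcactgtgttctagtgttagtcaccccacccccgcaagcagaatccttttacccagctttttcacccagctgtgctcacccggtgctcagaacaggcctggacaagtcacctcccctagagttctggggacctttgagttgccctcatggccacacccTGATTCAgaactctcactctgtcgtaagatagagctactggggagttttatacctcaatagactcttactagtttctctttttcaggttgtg

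Icam1 held a GAS match 42 to 34 bases before the start, a motif found in 8.3% of 32851 promoters of this length. Cd274 held a SMAD match 66 to 61 bases before the start (21% of promoters), and Cd80 an AP-1 match 42 to 36 bases before it (7.81%). Pdcd1lg2 held a PU.1 match 82 to 77 bases before the start (28.3%), and Icosl held none of the 6. No kappaB match (4.79% of promoters) or ISRE match (3.44%) was found in these 5 windows. No matches overlapped. A match here is a run of letters, not a measured binding site. Variants of the motifs were not searched, so the lack of a match does not show that a site is absent.

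Cd40 was nearly silent at rest and rose most when both stimuli were present. This receptor, a TNF receptor family member, licenses antigen-presenting cells when CD40 ligand binds it. The gene (ENSMUSG00000017652.18) lies on chromosome 2 of GRCm39 from 164897544 to 164914868, plus strand, with 9 exons in its canonical transcript. It had 0, 8 and 6 counts in the untreated libraries and 3, 1 and 0 in the TGFβ libraries. With Pam3 it had 29, 20 and 17 counts, and with Pam3+TGFβ 154, 171 and 168. Every Pam3+TGFβ library was above every Pam3 library, and every Pam3 library above every library without Pam3, while the untreated and TGFβ libraries overlapped.

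Mean Cd40 levels were 0.121 ± 0.106 CPM untreated, 0.0359 ± 0.0426 under TGFβ, 0.608 ± 0.126 under Pam3 and 4.28 ± 0.427 under the 2 stimuli together (SD, n = 3). Because Cd40 passed the filter through the libraries with Pam3, its Pam3 responses and their difference are given as a description, without a test. With TGFβ only 4 counts in all stand on the resting side, so the rate ratio is given with its 95% counting interval: 122-fold, from 47.3 to 449. The ratio without TGFβ was 5.02, from 2.79 to 9.69, and these intervals cover counting error only. The fitted log2 response with TGFβ was 6.81, and leaving out single libraries moved it from 6.25 to 8.05, the highest without TGFβ replicate 1. The response without TGFβ was 2.29, from 1.73 to 2.84. The interaction, the amount by which the log2 response to Pam3 was larger in TGFβ cultures, was 4.51 as fitted, from 3.95 to 5.75 with single libraries left out, and it too rests on the low counts without Pam3. In the presence of Pam3, TGFβ raised Cd40 by 2.8 (SE 0.425, edgeR adjusted p 5.47e-06). In its absence the fitted TGFβ effect was -1.71 (SE 0.857, adjusted p 0.101), and it passed the threshold without untreated replicate 1 (-2.26, adjusted p 0.012) or without TGFβ replicate 1 (-2.95, adjusted p 0.0351). The summed T cell markers were also highest with both stimuli, at 1.17 to 1.31 CPM against at most 0.765 elsewhere, carried by Lck and Trac. The summed dendritic cell markers were lowest there (17 to 18.4 CPM against 19.2 to 25.2), and the summed hepatocyte markers highest (8.41 to 10.2 CPM against 5.8 to 7.7), carried by Afp with Alb at no more than 5 counts. Their part in the Cd40 result was not tested.

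**Figure D1:**
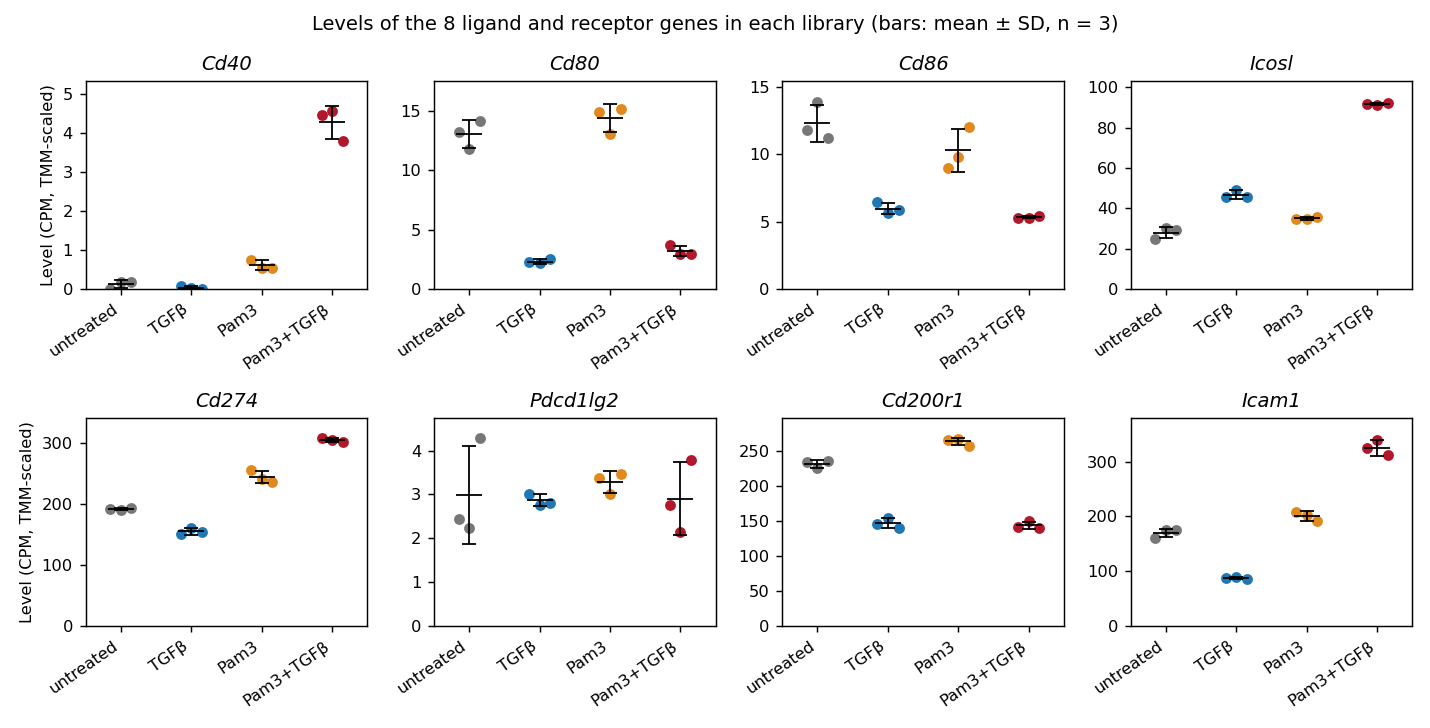
Level of each gene in each of the 12 libraries, in CPM on a linear axis from 0, by treatment group; points are libraries and bars give the mean ± SD (n = 3). Cd40, Icosl, Cd274 and Icam1 were highest in the 3 Pam3+TGFβ libraries, whereas Cd80, Cd86 and Cd200r1 were lower in every library with TGFβ than in any library without it.

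Cd80 and Cd86, the B7 ligands for CD28 and CTLA-4, were lower with TGFβ whether or not Pam3 was present. Cd80 (ENSMUSG00000075122.7, chromosome 16, 38275923 to 38316697, plus strand, 5 exons) was counted at 13.2, 11.8 and 14.2 CPM in untreated libraries and 2.24, 2.17 and 2.52 CPM with TGFβ. With Pam3 it stood at 14.9, 13.1 and 15.2 CPM, and with Pam3+TGFβ at 3.7, 2.95 and 2.98 CPM. The libraries with and without TGFβ did not overlap. TGFβ lowered Cd80 5.65-fold at rest (log2 fold change -2.5, SE 0.131, adjusted p 1.76e-14) and 4.5-fold in the presence of Pam3 (log2 fold change -2.17, SE 0.125, adjusted p 1.6e-13).

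Pam3 moved Cd80 little. Without TGFβ the log2 fold change was 0.14 (95% interval -0.09 to 0.37, adjusted p 0.449). With TGFβ it was 0.47 (SE 0.145, adjusted p 0.0119), a call that was lost without TGFβ replicate 2 (adjusted p 0.062), without Pam3+TGFβ replicate 1 (0.34, adjusted p 0.102) or in a fit of only the 6 libraries compared (adjusted p 0.055). The interaction was 0.33 (95% interval -0.05 to 0.7, adjusted p 0.267). The exons of Cd80 share 276 bases with those of Timmdc1 on the opposite strand, and the strand setting of the counting is not given. Timmdc1 did not fall with TGFβ: its log2 fold change was 0.15 at rest (adjusted p 0.117) and 0.43 with Pam3 (adjusted p 6.05e-05).

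Cd86 (ENSMUSG00000022901.15, chromosome 16, 36424044 to 36486443, minus strand, 8 exons) lies 1789 kb from Cd80 and fell less. Its levels were 11.8, 13.9 and 11.2 CPM in untreated libraries and 6.48, 5.63 and 5.84 CPM with TGFβ. They were 9, 9.82 and 12.1 CPM with Pam3, and 5.3, 5.28 and 5.44 CPM with both. All 6 libraries with TGFβ were below all 6 without it. The TGFβ effect was 2.06-fold lower at rest (log2 fold change -1.04, SE 0.122, adjusted p 6.95e-08) and 1.92-fold lower with Pam3 (log2 fold change -0.94, SE 0.124, adjusted p 5.99e-07).

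Pam3 did not raise Cd86 in either condition. The log2 fold changes were -0.26 without TGFβ (95% interval -0.5 to -0.02, adjusted p 0.132) and -0.16 with it (95% interval -0.43 to 0.1, adjusted p 0.35). Without Pam3 replicate 3 the former was -0.39 and passed the threshold (adjusted p 0.0354). The interaction was 0.1 (95% interval -0.26 to 0.46, adjusted p 0.78). In bulk RNA, fewer cells carrying a transcript and less transcript per cell cannot be told apart, here and for the genes below. The summed neutrophil markers moved with TGFβ in the same direction, from 13.1 to 16.1 CPM without it to 3.14 to 5.38 CPM with it, mostly from S100a8. S100a9 went the other way, from means of 0.253 to 0.993 CPM at rest and 0.5 to 1.16 with Pam3, and Mpo had no count. Of the dendritic cell markers, Zbtb46 was lower with TGFβ, at 1.42 against 4.64 CPM at rest and 1.55 against 4.11 with Pam3. Clec9a was higher at rest, at 20.5 against 16.7 CPM, and the summed list overlapped there (20.8 to 23.8 against 19.2 to 23.5 CPM). With Pam3 both were lower under TGFβ, Clec9a at 15.5 against 18.5 CPM and the sum at 17 to 18.4 against 22 to 25.2 CPM. The summed endothelial markers also fell, from 217 to 302 CPM without TGFβ to 119 to 194 CPM with it, nearly all from Vwf. Cdh5 (0.888 to 0.0514 CPM at rest) and Kdr (0.865 to 0.082 CPM) were also lower, and Tie1 and Tek had no more than 3 counts. The summed mast cell markers were lower too, at 0 to 0.136 CPM with TGFβ against 0.263 to 1.11 without it, from Cpa3, while Mcpt4, Cma1 and Tpsb2 had no count. The part of any of these in the B7 result was not tested.

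Icosl, the ligand for ICOS, went the other way from its B7 relatives: it rose with TGFβ, with Pam3, and most with both. The gene (ENSMUSG00000000732.11) lies on chromosome 10 from 77905136 to 77919747, plus strand, with 7 exons. Its levels were 24.7, 30.1 and 29.1 CPM in untreated libraries, 45.8, 49.2 and 45.4 with TGFβ, and 34.8, 34.5 and 35.5 with Pam3. With both they were 91.8, 91.3 and 92 CPM. No 2 groups overlapped, in the order Pam3+TGFβ, TGFβ, Pam3, untreated.

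TGFβ raised Icosl 1.67-fold at rest (log2 fold change 0.74, SE 0.0668, adjusted p 6.95e-10) and 2.62-fold in the presence of Pam3 (log2 fold change 1.39, SE 0.0663, adjusted p 3.3e-15). The Pam3 response was 1.25-fold without TGFβ (adjusted p 0.00104) and 1.96-fold with it (adjusted p 4.06e-12). These responses differed, with an interaction of 0.65 (SE 0.0934, adjusted p 1.14e-05). Of the 8 genes it was the only one that TGFβ raised in resting cells.

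The PD-1 ligands separated. Cd274, which encodes PD-L1, was abundant in every group and highest with both stimuli, and it changed direction with TGFβ depending on Pam3. The gene (ENSMUSG00000016496.9) lies on chromosome 19 from 29344529 to 29365495, plus strand, with 7 exons. Its levels were 192, 191 and 194 CPM in untreated libraries, 150, 161 and 153 with TGFβ, 255, 241 and 236 with Pam3, and 308, 305 and 302 with both. The 4 groups did not overlap.

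TGFβ lowered Cd274 1.24-fold at rest (log2 fold change -0.31, SE 0.0418, adjusted p 7.47e-07) and raised it 1.25-fold in the presence of Pam3 (log2 fold change 0.32, SE 0.0415, adjusted p 4.32e-07). Pam3 raised it 1.27-fold without TGFβ (log2 fold change 0.35, SE 0.0416, adjusted p 7.78e-07) and 1.97-fold with it (log2 fold change 0.98, SE 0.0419, adjusted p 6.03e-16). The interaction was 0.63 (SE 0.0589, adjusted p 1.04e-08). Exons of Cd274 share 219 bases with Plgrkt and 581 bases with the noncoding Gm36043, both on the opposite strand. Plgrkt moved opposite to Cd274 under Pam3, falling by 0.17 without TGFβ and by 0.25 with it on the log2 scale, while Gm36043 rose with it in the presence of TGFβ by 0.68 (adjusted p 0.00163), to a mean of 12.1 CPM.

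Pdcd1lg2, which encodes PD-L2 and begins 22.8 kb beyond the end of Cd274 on the same strand (ENSMUSG00000016498.12, 29388319 to 29448882, 6 exons), was low and showed no called change. Its levels were 2.45, 2.24 and 4.28 CPM in untreated libraries, 3.02, 2.77 and 2.8 with TGFβ, 3.38, 3 and 3.46 with Pam3, and 2.76, 2.14 and 3.8 with both. All 4 groups overlapped, and the highest values came from untreated replicate 3 and Pam3+TGFβ replicate 3. The log2 fold changes ran from -0.17 to 0.14 over the 4 comparisons, with adjusted p from 0.589 to 0.947. Their intervals were wide, reaching from -0.65 to 0.62 over the 4 comparisons, so changes inside each interval were not excluded. The sign of each turned when particular libraries were left out.

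Cd200r1, the receptor for the restraining ligand CD200, was the most abundant of the 8 per kb of exon in untreated, TGFβ and Pam3 cells, and it fell with TGFβ. The gene (ENSMUSG00000022667.20) lies on chromosome 16 from 44586096 to 44615343, plus strand, with 7 exons. Its levels were 234, 225 and 236 CPM in untreated libraries, 145, 154 and 140 with TGFβ, 265, 267 and 257 with Pam3, and 141, 149 and 140 with both. The TGFβ and Pam3+TGFβ libraries overlapped, and the other groups stood apart. TGFβ lowered it 1.58-fold at rest (log2 fold change -0.66, SE 0.045, adjusted p 3.42e-12) and 1.84-fold with Pam3 (log2 fold change -0.88, SE 0.0451, adjusted p 1.48e-14).

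Pam3 raised Cd200r1 1.14-fold without TGFβ (log2 fold change 0.19, SE 0.0446, adjusted p 0.00363), and with TGFβ the change was -0.03 (95% interval -0.12 to 0.06, adjusted p 0.623). The interaction was -0.22 (SE 0.0634, adjusted p 0.0178). That call was lost without Pam3 replicate 1 (adjusted p 0.0534) or without Pam3 replicate 2 (adjusted p 0.0645). Cd200r1 has close relatives beside it on chromosome 16, and how reads matching more than 1 of them were counted is not given, so its counts may be uncertain. Of these, Cd200r4 fell with TGFβ by 1.38 at rest and by 1.58 with Pam3 on the log2 scale, Cd200r2 by 0.5 and 0.49, and Cd200r3 by 1.92 and 1.69. The interaction of Cd200r4 was -0.21 (adjusted p 0.0382), while those of Cd200r2 (0.02, adjusted p 0.946) and Cd200r3 (0.23, adjusted p 0.782) were not called.

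Icam1, which encodes the ligand for the integrins LFA-1 and Mac-1, had the largest tested interaction of the other 7 genes. The gene (ENSMUSG00000037405.10) lies on chromosome 9 from 20926672 to 20940113, plus strand, with 7 exons. Its levels were 161, 175 and 175 CPM in untreated libraries, 87.1, 88.7 and 85.8 with TGFβ, 208, 203 and 191 with Pam3, and 324, 340 and 312 with both. The 4 groups were fully separate, with TGFβ the lowest and Pam3+TGFβ the highest.

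TGFβ lowered Icam1 1.95-fold at rest (log2 fold change -0.96, SE 0.0476, adjusted p 5.23e-15) and raised it 1.62-fold in the presence of Pam3 (log2 fold change 0.7, SE 0.0467, adjusted p 2.8e-12). The Pam3 response was 1.18-fold without TGFβ (adjusted p 0.000544) and 3.73-fold with it (adjusted p 3.06e-20). The interaction was 1.66 (SE 0.0667, adjusted p 4.93e-15). Icam1 and Cd274 thus shared their order of groups, with Pam3+TGFβ above Pam3, untreated and TGFβ in turn. The means of Cd40 had the same order, with overlap between untreated and TGFβ libraries.

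Cd40 had to differ between libraries with and without Pam3 to pass the filter, so it is left out of the counts that follow unless named. Of the other 7 genes, Pam3 without TGFβ raised 4 (Cd274, Icosl, Icam1, Cd200r1) and lowered 0, where 18.3% of all tested genes were called, 9.62% higher and 8.66% lower. Pam3 with TGFβ raised 4 (Cd80, Cd274, Icosl, Icam1) and lowered 0, where 38.5% of all genes were called, 20.4% higher and 18.1% lower. TGFβ at rest raised 1 and lowered 5 (Cd80, Cd86, Cd274, Icam1, Cd200r1), where 51% were called, 22.9% higher and 28.1% lower. TGFβ in the presence of Pam3 raised 3 (Cd274, Icosl, Icam1), and Cd40 besides, and lowered 3 (Cd80, Cd86, Cd200r1), where 45.3% were called, 21.5% higher and 23.8% lower. The interaction was called higher for 3 (Icam1, Icosl, Cd274) and lower for 1 (Cd200r1), where 15.9% were called, 10.3% higher and 5.67% lower.

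The median log2 fold changes over these 7 genes were 0.19 and 0.47 for Pam3 without and with TGFβ, -0.66 and -0.17 for TGFβ without and with Pam3, and 0.33 for the interaction. With Cd40 the median for TGFβ with Pam3 was 0.08. Over all genes the medians lay between -0.019 and 0.005. The groups compared did not overlap for 4 of the 7 in the Pam3 response without TGFβ, where 31.4% of all genes had no overlap, and for 5 with TGFβ, where 50.4% had none. For the TGFβ effect the count was 6 both at rest and with Pam3, beside 56.4% and 55.1%. With upper-quartile scaling the split of calls over all genes shifted towards lower for Pam3 with TGFβ, at 2477 higher and 3489 lower (3008 and 2670 with TMM), and for the interaction, at 1255 and 1097 (1516 and 836 with TMM). The majority turned for Pam3 with TGFβ, and it also turned for Pam3 without TGFβ, at 1299 and 1495 (1419 and 1278 with TMM). The split shifted towards higher for TGFβ at rest, at 3728 and 3842 (3377 and 4141 with TMM). The calls of the 8 genes were the same in number and direction under both scalings. The comparisons with and without TGFβ share no library within a Pam3 response, whereas the interaction shares libraries with all 4.

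**Figure D2:**
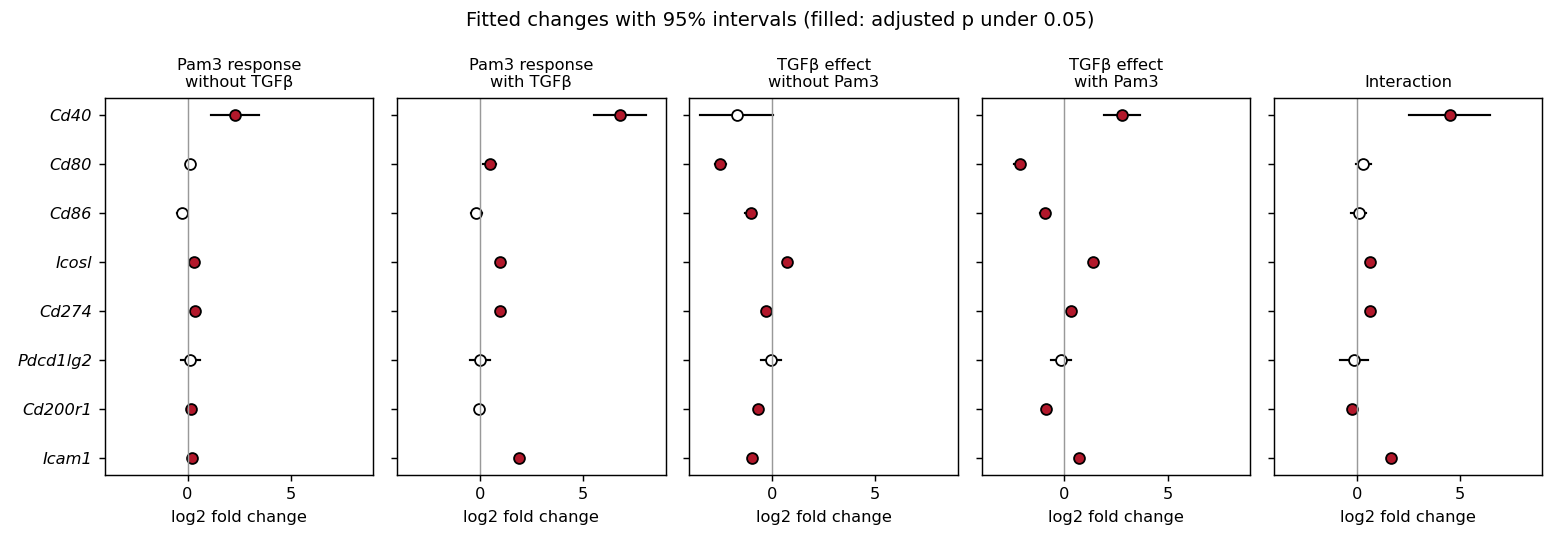
Fitted log2 fold change (x axis) of each of the 8 genes (y axis) in the 5 comparisons; lines are 95% intervals and filled points have an adjusted p under 0.05, which for Cd40 in the Pam3 and interaction panels is not read as a test. Cd80 and Cd86 sit to the left of 0 in both TGFβ panels, Icosl to the right in both, and Cd274 and Icam1 change sides.

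Levels per kb of exon compare different genes only roughly, since the annotation and strand setting used in counting are not given. On this scale Cd274 had 47.1 CPM per kb in untreated cells, Icam1 34.2 and Cd200r1 69. Icosl had 6.05, Cd86 3.2, Cd80 3.16, Pdcd1lg2 1.31 and Cd40 0.0356 CPM per kb. In untreated cells Cd86 and Cd80 overlapped, and every other pair of neighbours in this order was separate. With Pam3+TGFβ the order changed: Cd274 led at 74.7 CPM per kb, followed by Icam1 at 65.5, Cd200r1 at 42.7 and Icosl at 19.8. Cd86 (1.39), Pdcd1lg2 (1.27) and Cd40 (1.26) then overlapped, and Cd80 was lowest at 0.777 CPM per kb. Cd40 thus passed from the lowest of the 8 at rest to a level above that of Cd80.

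Ratios within a library do not depend on the library's scaling. Cd80 to Cd86, in log2 of counts per kb, averaged -0.01 ± 0.29 untreated, 0.39 ± 0.21 under Pam3, -1.48 ± 0.16 under TGFβ and -0.84 ± 0.19 under the 2 stimuli together (SD, n = 3). The Cd80 to Cd86 ratio did not overlap between the 6 libraries with TGFβ, all below 0, and the 6 without it. Of the latter, untreated replicate 2 was also below 0, at -0.34. The ratio of Cd274 to Cd86 sets a ligand of PD-1 over a ligand shared by CD28 and CTLA-4. It averaged 3.89 ± 0.17 untreated, 4.61 ± 0.15 under TGFβ, 4.49 ± 0.27 under Pam3 and 5.75 ± 0.036 under the 2 stimuli together. At rest both genes fell with TGFβ, Cd86 by more (log2 fold change -1.04, against -0.31 for Cd274).

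In linear terms Cd274 exceeded Cd86 12.9- to 16.3-fold in the untreated libraries and 52.4- to 54.9-fold in the Pam3+TGFβ libraries. All 4 comparisons of this ratio were without overlap, with differences of 0.61 and 1.14 for Pam3 and 0.73 and 1.26 for TGFβ on the log2 scale. The exact two-sided permutation test gave p = 0.1 for each, the smallest that 3 against 3 allow (0.15 after Benjamini-Hochberg adjustment over 12 tests of 3 ratios), so the threshold could not be reached. Cd274 to Pdcd1lg2 rose with Pam3 in the presence of TGFβ from 4.92 ± 0.11 to 5.92 ± 0.42 (difference 1 on the log2 scale, exact permutation p = 0.1), and its other comparisons overlapped.

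**Figure D3:**
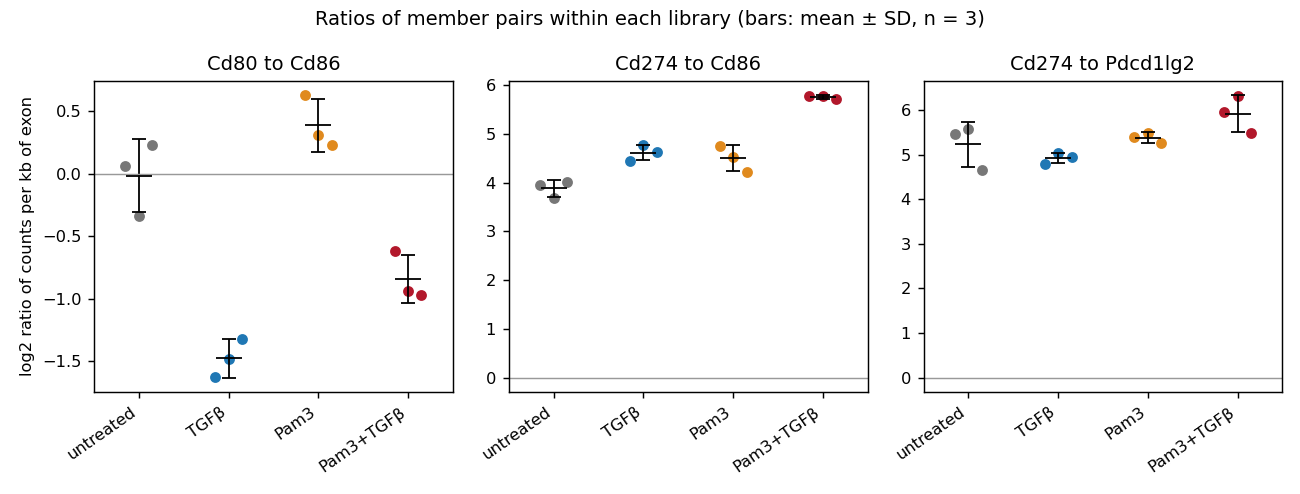
Log2 ratio of counts per kb of exon (y axis) for 3 pairs of genes within each library, by treatment group; points are libraries, bars give the mean ± SD (n = 3) and the line marks equal levels. Cd80 falls below Cd86 in the 6 libraries with TGFβ and, by less, in untreated replicate 2. Cd274 exceeds Cd86 most in the 3 Pam3+TGFβ libraries.

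The genes whose levels followed each of the 8 most closely were ranked by Pearson r of log2 CPM over the 12 libraries, which share the 4 treatments, so any gene with the same group means scores high. Cd274 was most like the interferon-inducible genes Gbp6 (r = 0.997), Gbp2 (0.995) and Ifi204 (0.994). Cd40 was most like Ifit1bl1 (0.985), the antiviral gene Rsad2 (0.983) and Txnrd1 (0.98), a thioredoxin reductase. Icosl was most like the class I molecule H2-K1 (0.996) and the fibronectin receptor subunit Itga5 (0.994). Icam1 was most like the prostaglandin receptor Ptger4 (0.993), the necroptosis effector Mlkl (0.993) and Sp110 (0.992).

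The 3 genes that TGFβ lowered both at rest and with Pam3 had other companions. Cd80 was most like Nckap1l (0.996), Tcp11l1 (0.995) and Sgpl1 (0.995), and Cd86 most like Plin3 (0.989), C2cd2l (0.986) and Tmem104 (0.986). Cd200r1 was most like the lectin Clec4a3 (0.991), the chemokine Ccl6 (0.987) and the complement receptor C3ar1 (0.986). Pdcd1lg2 had no close match, with Papolb the nearest at 0.776. Among the 8 genes themselves, r was 0.97 between Cd274 and Icam1, 0.97 between Cd80 and Cd200r1, 0.91 between Cd80 and Cd86, and -0.87 between Icosl and Cd86. Cd40 had an r of 0.94 with Cd274 and 0.9 with Icam1.

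Genes linked to CD40 signalling were examined as a list of 15, all tested. It held TRAF adaptors, noncanonical NF-κB genes, and NF-κB kinases and inhibitors that are not particular to CD40. Cd40lg, the gene of the CD40 ligand, had no count in any library, and a part of CD40 in the changes below was not tested. With TGFβ at rest 1 was called higher and 9 lower (22.9% and 28.1% of all genes, list median -0.44), and TGFβ added to Pam3 raised 6 and lowered 0 (21.5% and 23.8%, median 0.11). Pam3 raised 7 and lowered 1 without TGFβ (9.62% and 8.66%, median 0.16), and raised 12 and lowered 1 with it (20.4% and 18.1%, median 0.84). The interaction was higher for 10 and lower for 1 (10.3% and 5.67%, list median 0.45). Nfkb2, the precursor of the noncanonical NF-κB subunit p52, stood at 86.5 ± 11.1 CPM untreated, 42.2 ± 4.28 under TGFβ, 104 ± 2.87 under Pam3 and 162 ± 6.74 under the 2 stimuli together (SD, n = 3). Its partner Relb had an interaction of 1.73 (SE 0.156, adjusted p 1.23e-07), the inhibitor Nfkbie of 2.62 (SE 0.113, adjusted p 1.87e-14) and the deubiquitinase Tnfaip3 of 2.24 (SE 0.0889, adjusted p 4.93e-15). The adaptor Traf1 had 2 to 4 counts in the TGFβ libraries and overlapping levels with Pam3 (2.99 ± 0.273 CPM) and with both (3.19 ± 0.483 CPM). The kinase Map3k14 was the exception, with an interaction of -0.5 (SE 0.149, adjusted p 0.0211).

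Of 17 transcription factor genes with known roles at promoters of this kind, 13 were called higher and 2 lower with Pam3 in the presence of TGFβ (20.4% and 18.1% of all genes, list median 0.73), and 9 higher and 0 lower with Pam3 in its absence (9.62% and 8.66%, median 0.23). The interaction was higher for 11 and lower for 1 (10.3% and 5.67%, list median 0.33). Irf7, a driver of interferon responses, stood at 6.91 ± 2.13 CPM untreated, 5.53 ± 1.14 under TGFβ, 50.5 ± 5.82 under Pam3 and 220 ± 1.51 under the 2 stimuli together (SD, n = 3). The interaction of Irf1 was 1.28 (SE 0.078, adjusted p 5.9e-12), and that of Junb was 1.21 (SE 0.0957, adjusted p 1.54e-09). Irf8 alone was called lower, by -0.29 (SE 0.07, adjusted p 0.00447).

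**Figure D4:**
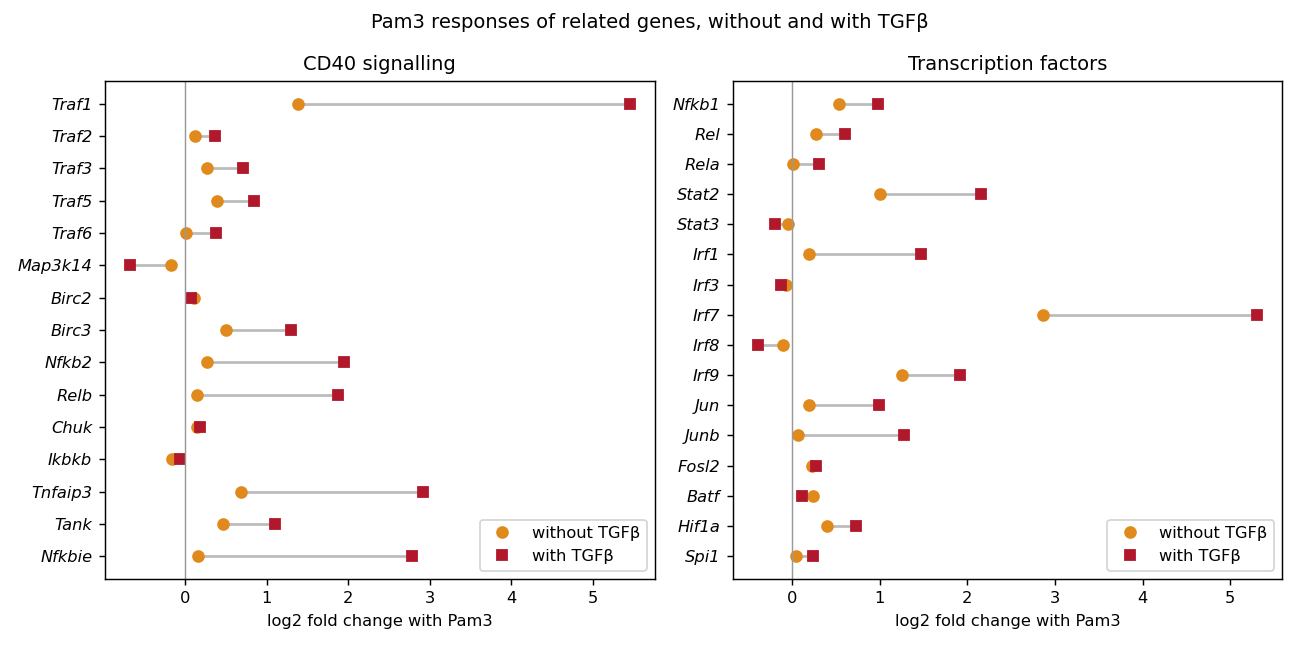
Log2 fold change with Pam3 (x axis) of 15 genes of CD40 signalling and 16 transcription factors (y axis), fitted without TGFβ (circles) and with TGFβ (squares). Squares lie to the right of circles for most genes, farthest for Traf1, Nfkbie, Tnfaip3 and Irf7, and farthest to the left for Map3k14.

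Other ligands of the same kind did not move as a block. Of 18 further B7, butyrophilin and checkpoint ligands, 12 were tested, and TGFβ at rest raised 4 and lowered 8 (22.9% and 28.1% of all genes, list median -0.37). In the presence of Pam3 it raised 6 and lowered 4 (21.5% and 23.8%, median 0.25). Vsir, which encodes the inhibitory B7 relative VISTA, stood at 350 ± 7.73 CPM untreated, 128 ± 4.4 under TGFβ, 245 ± 2.28 under Pam3 and 57.6 ± 2.39 under the 2 stimuli together (SD, n = 3). It fell with Pam3, where Cd274 rose, and both fell with TGFβ at rest. The interaction of Vsir was -0.63 (SE 0.0616, adjusted p 2.56e-08). The poliovirus receptor relatives that bind TIGIT, Pvr and Nectin2, had higher Pam3 responses with TGFβ (interactions of 1.13, adjusted p 1.33e-06, and 1.01, adjusted p 5.23e-05). Tnfrsf14 fell with TGFβ from 25.7 ± 0.945 to 3.24 ± 0.898 CPM at rest (SD, n = 3). Cd200, the ligand of CD200R1, rose with TGFβ from 23.4 ± 1.07 to 44.3 ± 3.66 CPM (SD, n = 3) as its receptor fell.

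Of 9 TNF superfamily costimulatory ligands, 6 were tested, and TGFβ at rest raised 1 and lowered 4 (22.9% and 28.1% of all genes, list median -2.33). In the presence of Pam3 it raised 2 and lowered 3 (21.5% and 23.8%, median -0.78). Tnfsf15, the ligand of death receptor 3, stood at 8.95 ± 0.619 CPM untreated, 0.491 ± 0.327 under TGFβ, 17.9 ± 0.696 under Pam3 and 35.9 ± 5.27 under the 2 stimuli together (SD, n = 3). It was the only one of the 6 with a called interaction (5.22, SE 0.305, adjusted p 5.51e-09), where 15.9% of all genes were called. Tnfsf14 and Tnfsf8 were lower with TGFβ with or without Pam3.

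Among 13 tested genes of 14 listed as CD200 receptor relatives and inhibitory receptors, not all of them inhibitory, TGFβ lowered 11 at rest, where 28.1% of all genes were lower, and 9 with Pam3, where 23.8% were. It raised 2 in each, where 22.9% and 21.5% of all genes were higher, and the list medians were -1.02 and -0.91. Siglece and Pilra were the 2 that rose, by 2.35 and 0.29 on the log2 scale at rest (adjusted p 6.38e-17 for Siglece). Of 17 genes for ICAMs, integrins and SLAM adhesion, 13 were tested, of which Slamf7 and Slamf8 reached the filter only through libraries without TGFβ and are left out here. Of the other 11, TGFβ at rest raised 2 and lowered 8 (22.9% and 28.1% of all genes, median -0.7). In the presence of Pam3 it raised 2 and lowered 7 (21.5% and 23.8%, median -0.77). The integrin chains that pair with Itgb2 to bind ICAM-1 parted: Itgal (LFA-1) rose from 418 ± 6.03 to 1117 ± 37.6 CPM with TGFβ, while Itgam (Mac-1) fell from 1088 ± 49.6 to 38.8 ± 1.9 CPM (SD, n = 3). Itgax, which also pairs with Itgb2, fell from 335 ± 11.4 to 168 ± 7.68 CPM (SD, n = 3). Itgb2 itself fell by 0.23 (adjusted p 0.000624). With both stimuli Itgal stood at 1262 ± 36.2 CPM and Itgam at 101 ± 7.95 CPM (SD, n = 3).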

How the data were processed

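RNA of 12 FLAM cultures was sequenced from stranded mRNA libraries, per the labels' protocols. The authors mapped reads with Bowtie2 2.4.1 to GRCm39 and counted them with featureCounts (Subread 2.0.0), and tested genes with DESeq2 1.36.0 (R 4.2.1), as the series' design text states. Which annotation was used, and how strand and multiply mapped reads were handled in counting, are not given in the sources used here. The deposited counts are whole reads per gene symbol. A second deposited table holds a signal, each count divided by 1 constant per library by the authors, and entered only an alternative.

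Genes were kept with filterByExpr (minimum count 10), scaled with TMM and tested in 1 fit of all 12 libraries with 4 group means (edgeR 4.0.16, robust quasi-likelihood test, R 4.3.3). Adjusted p is Benjamini-Hochberg over all 14749 genes, called under 0.05, and intervals of fold changes use the t distribution of that test. Levels per kb divide by the union of exons in GENCODE M39 (GRCm39). In every replicate pair the chi-square over genes exceeded its degrees of freedom, 9.99 to 220 times. The fitting script was tested on simulated data.

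Alternatives were other scalings, DESeq2 1.42.0, limma-trend 3.58.1 on the logged normalized table, other filters, a replicate block, fits of the 6 libraries compared, and leaving out each library. Named genes are the 8 members, of each related list and comparison some of the 4 most changed called genes, and the 3 genes most like each member among those with a mean of at least 5 CPM, of which some are not reported here. The members and lists were chosen with earlier results of these data known. Outside that rule, Cd200, Cd200r2, Itgb2, Map3k14, Cd28, Timmdc1, Plgrkt and Gm36043 were described after their values were seen.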

Additional observations from a re-analysis of the deposited data

Results flagged for a closer look

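For 4 of the 7 genes other than Cd40, the test of the difference between the Pam3 responses of the TGFβ and TGFβ-free cultures passed the threshold, where 15.9% of all genes did. The interaction was 1.66 for Icam1, 0.65 for Icosl and 0.63 for Cd274, all with the larger response in the presence of TGFβ. It was -0.22 for Cd200r1, whose rise with Pam3 was called without TGFβ only, and this interaction lost its call without Pam3 replicate 1 or without Pam3 replicate 2. The fitted value for Cd40 was 4.51, a description only, since Cd40 passed the filter on low counts through libraries with Pam3.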

How the results depend on the processing

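Over 786 values of the 8 genes under the alternatives, 766 kept their direction and their side of the threshold. The fold change of Pdcd1lg2, never called, turned sign for Pam3 with TGFβ under upper-quartile scaling (-0.04), limma-trend (-0.01) and the replicate block (-0.01), and for TGFβ at rest under limma-trend (0.01). In a fit of only the 6 libraries compared, the Pam3 response of Cd80 with TGFβ was 0.48 and no longer called. Leaving out each library in turn, Pdcd1lg2 ran from -0.03 to 0.48 and from -0.24 to 0.19 for Pam3 without and with TGFβ, from -0.23 to 0.29 and from -0.42 to 0.01 for TGFβ without and with Pam3, and from -0.45 to 0.06 for the interaction. Cd86 ran from -0.39 to -0.16 for Pam3 without TGFβ, Cd80 from 0.34 to 0.52 for Pam3 with TGFβ, Cd40 from -2.95 to -1.15 for TGFβ at rest, and Cd200r1 from -0.27 to -0.19 for the interaction. The interaction of Cd40 ran from 3.95 to 5.75. The cause of these shifts was not tested. Requiring 10 counts in every library leaves out Cd40, so no value exists there.

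With the title number as a replicate block, 2751, 5714, 7562, 6736 and 2393 genes were called for the 5 comparisons, against 2697, 5678, 7518, 6679 and 2352 without it, and no call of the 8 genes changed. Correlations of deviations from group means ran from -0.14 to 0.3 for same-numbered libraries and from -0.4 to 0.24 for others. Not every library correlated best with its own number. With 3 libraries a group, these values cannot tell whether same-numbered libraries shared an origin. Depth limits Cd40 in resting cells, at 0 to 8 counts a library.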

Other observations

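Some receptors usually read as T cell genes had counts in these cultures. Cd28 had 9 to 42 counts in the untreated libraries and 8 to 22 with Pam3, and 0 in all 6 libraries with TGFβ. Cd2 stood at 4.02 ± 0.461 CPM untreated, 1.37 ± 0.212 under TGFβ, 1.79 ± 0.137 under Pam3 and 0.493 ± 0.13 under the 2 stimuli together (SD, n = 3), and TGFβ at rest lowered it 2.93-fold (edgeR adjusted p 7.12e-06). Cd3e, Cd3g and Cd8a had 0 counts in each of the 12 libraries, as did Ctla4, Icos, Pdcd1 and Cd40lg, whereas Lck reached 36 counts and Trac 15.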
